A study of Homo sapiens with 5 samples.

Results

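The genes of excision repair, mismatch repair and translesion synthesis were followed at the mRNA level in RPE1 cells exposed to doxorubicin. The set was chosen by gene name and held 39 of the 26485 genes with deposited counts: 11 of nucleotide excision repair, 16 of base excision repair, 5 of mismatch repair, 6 of translesion synthesis, and MGMT, which reverses base alkylation directly. RPE1 is a human cell line derived from retinal pigment epithelium, and all libraries were made from wild-type cells of this line grown in one medium, so that no other genotype or cell line is represented. Of the 5 RNA-seq libraries, 2 came from cells kept in DMSO, the solvent of the drug, for 18 h, 2 from cells in 0.2 μM doxorubicin for 18 h and 1 from cells in 0.34 μM doxorubicin for 18 h. The treatment description gives these concentrations as 200 and 340 μM, whereas the label of each sample gives the lower values used here. Doxorubicin is an anthracycline that intercalates into DNA and poisons topoisomerase II, which leaves DNA breaks. Following the study, the doxorubicin libraries were joined into 1 group of 3 and set against the 2 DMSO libraries.

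Nucleotide excision repair removes bulky, helix-distorting lesions: sensors find the damage, the helicases of TFIIH open the DNA, and a pair of nucleases cut out the damaged strand. Base excision repair starts with a glycosylase that removes one altered base, after which an endonuclease, a polymerase and a ligase restore the strand. Mismatch repair corrects errors left by the replicative polymerases, with MutS proteins that recognise the mismatch and MutL proteins that license its removal. In translesion synthesis, specialised polymerases copy across damage that stops the replication fork. Several sensors and polymerases of these pathways are known targets of p53, and several glycosylases and mismatch factors are known to be made mostly in S phase.

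The libraries held between 23773061 and 36725345 counts on genes, with normalization factors between 0.975 and 1.04. Levels are given as CPM (counts scaled to a common library size) after TMM normalization, which scales each library by its total count and its composition. Of 14 markers of retinal pigment epithelium, 9 lay under 1 CPM in both groups, RPE65, RLBP1, TYR and TTR among them, while MITF and OTX2 were expressed at 42.9 and 26.4 CPM in DMSO. Part of the marker list of pigment epithelium was therefore low or absent in this line. The rest reached 1 CPM or more in at least 1 group. In bulk RNA, fewer cells of one cell cycle stage and less mRNA per cell cannot be told apart.

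In the set, 38 of the 39 genes had enough counts to be tested, and 6 passed in edgeR at an adjusted p under 0.01, the cutoff the study used. XPC and POLH, a lesion sensor and a bypass polymerase, were higher after doxorubicin, and NEIL3, PARP2, MSH6 and PARP1 were lower. The share called was 15.8% of the members tested, against 4.02% of all 14187 genes tested, of which 1.29% were higher and 2.73% lower. With DESeq2 on the same groups, 12 members passed, 6 higher and 6 lower (31.6%), where 14.6% of all genes passed (6.59% higher and 8.02% lower). With limma voom 5 members passed, all but PARP1, where 3.71% of all genes passed (1.12% higher and 2.59% lower). The 6 that DESeq2 added to those of edgeR were DDB1, DDB2, NEIL1 and SMUG1, which were higher, and MBD4 and XRCC1, which were lower. All of these had an adjusted p between 0.01 and 0.05 in edgeR, where 13.6% of all genes were under 0.05 (6.1% higher and 7.48% lower). With the replicate number as a block in edgeR 9 members passed, where 10.9% of all genes passed (4.78% higher and 6.12% lower). These were the 6 called without the block, together with DDB1, MBD4 and XRCC1. The DMSO and doxorubicin libraries did not overlap in 26 of the 38 members (68.4%), as in 47.7% of all genes tested. Of the 32 members that edgeR did not call, 21 had an absolute log2 fold change under 0.5 and 11 had a larger one, over 1 in 2 of them (MBD4 and NEIL1).

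Among the members, the direction differed between the pathways. In nucleotide excision repair 8 of 11 members had a positive log2 fold change and the median was 0.21, whereas in base excision repair 12 of 16 had a negative one and the median was -0.54. The median was -0.27 in mismatch repair, with 4 of 5 members negative, and 0.06 in translesion synthesis, with 3 of 6 members on each side. Over all genes tested the median was 0.01. The DMSO and doxorubicin libraries did not overlap in 45.5% of the nucleotide excision members and 75% of the base excision members, against 47.7% of all genes tested. Without 1 of the libraries, ERCC5 and ERCC8 among the positive nucleotide excision members changed sign, as did NTHL1 and POLB among the negative base excision members. Other genes of these pathways, from the fixed list described below, gave other values. Their median was 0.06 in base excision repair (6 of 11 positive) and 0.06 in nucleotide excision repair (11 of 19 positive). It was -0.41 in translesion synthesis (6 of 14 positive) and -1.37 in mismatch repair (1 of 2 positive). The 2 mismatch genes were EXO1, at -2.80, and PMS2CL, a near-identical copy of PMS2 sequence, at 0.06. Their median is only the midpoint of these values. The negative base excision median was thus that of the members. Without DMSO replicate 1 the nucleotide excision median was 0.13 and the translesion median 0.21. No test was made between the pathways, since their members were chosen with earlier results of these data known.

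**Figure D1:**
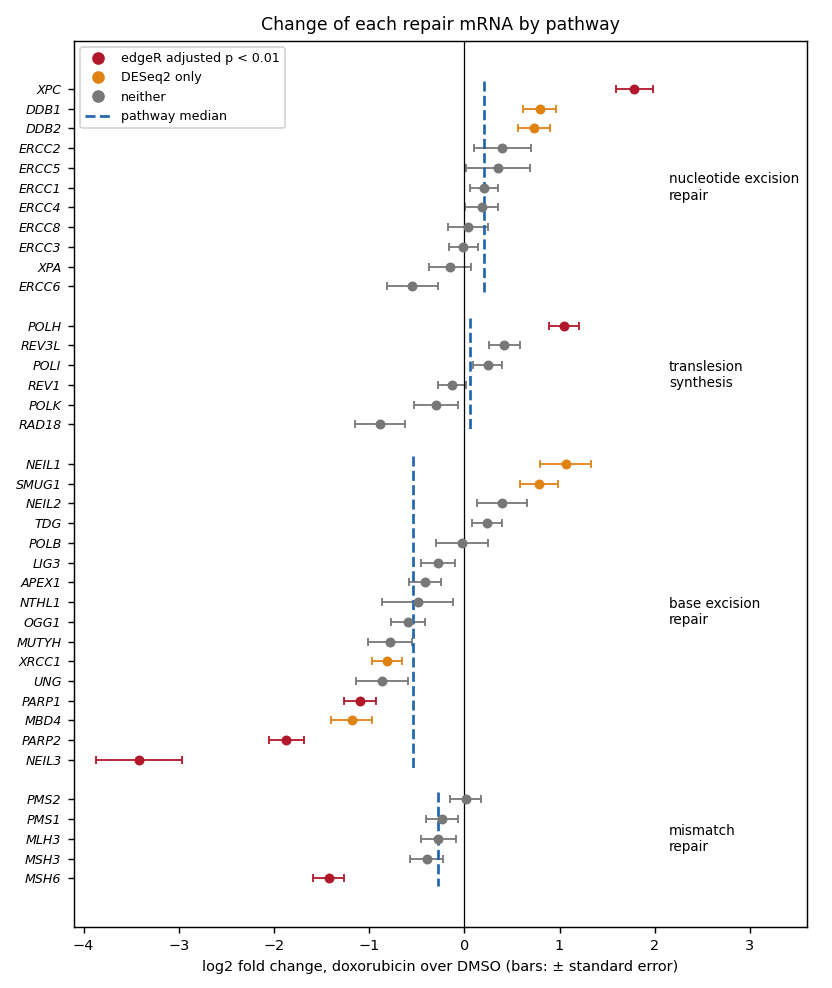
Log2 fold change of doxorubicin over DMSO (x axis) for the 38 members tested, by pathway, with bars of ± 1 standard error from edgeR and a dashed line at each pathway median. XPC stands alone at 1.79 on the right and NEIL3 at -3.42 on the left, and the median of base excision repair lies at -0.54.

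Among the sensors of nucleotide excision repair, XPC rose, and DDB1 and DDB2 passed the threshold in DESeq2 and not in the main edgeR test. DDB1 also passed it in edgeR with the replicate block (adjusted p = 0.00840). XPC, which scans the genome for distorted helices, lies on the minus strand of chromosome 3 (14145147 to 14178601, GRCh38). Its level was 55.0 and 56.3 CPM in the DMSO libraries, 160 and 229 CPM in the 0.2 μM libraries and 187 CPM in the 0.34 μM library. Each doxorubicin library thus lay far above both DMSO libraries, and the DMSO libraries were nearly equal. The mean went from 55.6 ± 0.957 CPM (SD, n = 2) to 192 ± 34.6 CPM (SD, n = 3), a 3.45-fold rise. On the log2 scale this was 1.79 with a standard error (SE) of 0.19, and edgeR gave an adjusted p of 0.00313.

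DDB1 and DDB2 form the heterodimer that binds ultraviolet photoproducts, and DDB1 is also the adaptor of CUL4 ubiquitin ligases. DDB1 stood at 256 and 340 CPM in DMSO and at 502, 518 and 526 CPM in doxorubicin, the last in the 0.34 μM library. For DDB2 the values were 11.8 and 12.8 CPM in DMSO against 19.6, 21.0 and 20.8 CPM. Neither gene's groups overlapped, and the 3 treated libraries were closer to each other than the DMSO libraries were for DDB1. DDB1 had a log2 fold change of 0.79 (SE 0.18, adjusted p = 0.0324 in edgeR and 0.000475 in DESeq2) and DDB2 one of 0.74 (SE 0.17, adjusted p = 0.0335 in edgeR and 0.00147 in DESeq2). XPA, which verifies the lesion and holds the complex together, had a log2 fold change of -0.15 with overlapping groups.

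The later steps of nucleotide excision repair did not pass the threshold with edgeR, DESeq2 or limma voom, and neither did ERCC6 or ERCC8. ERCC3 and ERCC2 are the helicases of TFIIH. ERCC3 lay between 48.5 and 57.9 CPM in all libraries, with a log2 fold change of -0.01 (SE 0.15). ERCC2 had 63.4 and 38.1 CPM in DMSO and 80.0 and 47.3 CPM in the 0.2 μM libraries. The replicates of one condition thus differed by 0.73 and 0.76 on the log2 scale, more than the log2 fold change of 0.40 (SE 0.30). Replicate 1 was the higher in both conditions, and with the replicate block the log2 fold change was 0.29 (adjusted p = 0.123 in edgeR). ERCC6, the ATPase that binds RNA polymerase stalled at a lesion, also differed between replicates, with 133 and 74.1 CPM in DMSO and 84.1, 59.2 and 69.1 CPM in doxorubicin. Its partner ERCC8 was level at a log2 fold change of 0.04 (SE 0.21). The incision nucleases ERCC1, ERCC4 and ERCC5 had log2 fold changes of 0.21, 0.18 and 0.36. ERCC5 had few counts, between 63 and 170 in a library. It shares its exons with the annotated read-through gene BIVM-ERCC5, which had at most 1 count in a library. The sources do not say how reads falling in both were counted.

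In translesion synthesis the rise was that of POLH, which encodes polymerase eta and copies accurately across thymine dimers. POLH (chromosome 6, 43576185 to 43620523, plus strand, GRCh38) overlaps GTPBP2. It was at 63.4 and 55.7 CPM in DMSO, at 110 and 126 CPM in 0.2 μM doxorubicin and at 134 CPM in 0.34 μM. The lowest treated library was well above the highest DMSO library. From a mean of 59.6 ± 5.45 CPM (SD, n = 2) it rose 2.07-fold to 123 ± 11.8 CPM (SD, n = 3), with a log2 fold change of 1.05 (SE 0.16, adjusted p = 0.00895 in edgeR).

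The other translesion genes gave smaller differences. REV3L, the catalytic subunit of polymerase zeta, was at 88.1 and 66.9 CPM in DMSO and at 99.7, 105 and 106 CPM in doxorubicin (log2 fold change 0.42, SE 0.16, adjusted p = 0.138 in edgeR). The groups did not overlap, but the DMSO libraries were 0.40 apart on the log2 scale. POLI had a log2 fold change of 0.24 (SE 0.15) and REV1, which recruits the other bypass polymerases, one of -0.13 (SE 0.15). POLK was at 38.3 and 22.9 CPM in DMSO and between 24.4 and 25.4 CPM in doxorubicin, so that the first DMSO library alone stood apart. RAD18 is the ubiquitin ligase that marks PCNA and so calls the bypass polymerases to the fork. Its levels were lower after doxorubicin, with 33.3 and 45.4 CPM in DMSO against 19.7, 28.0 and 16.5 CPM. The log2 fold change of -0.88 (SE 0.26) did not pass the threshold (adjusted p = 0.0718 in edgeR and 0.0182 in DESeq2). With the replicate block in edgeR the adjusted p was 0.0103, just outside it.

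Among the 10 DNA glycosylases of base excision repair, 6 had negative and 4 positive log2 fold changes, and 1 passed the threshold. This was NEIL3, which removes oxidised bases from single-stranded DNA and is known as a gene of proliferating cells. NEIL3 (chromosome 4, 177309874 to 177371268, plus strand, GRCh38) held 517 and 617 counts in the DMSO libraries against 49, 80 and 37 counts, the last in the deepest library. This corresponded to 19.7 and 24.2 CPM against 1.89, 3.33 and 1.02 CPM, and every treated library lay far below both DMSO libraries. The fall was 10.7-fold, from 21.9 ± 3.14 CPM (SD, n = 2) to 2.08 ± 1.16 CPM (SD, n = 3), and the largest of the set (log2 fold change -3.42, SE 0.45, adjusted p = 0.00595 in edgeR).

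The glycosylases that act on mismatched or deaminated bases did not move together. MBD4, which removes thymine or uracil opposite guanine, was at 34.3 and 30.0 CPM in DMSO and at 17.6, 11.8 and 13.1 CPM in doxorubicin (log2 fold change -1.18, SE 0.22, adjusted p = 0.0166 in edgeR and 4.14e-05 in DESeq2). TDG, which acts on the same mismatches, had 38.9 and 35.1 CPM in DMSO against 39.9, 47.1 and 43.6 CPM (log2 fold change 0.24, SE 0.16). Neither gene had overlapping groups. MBD4 missed the threshold in the main test but passed it in DESeq2, without the filter on low counts and with the replicate block, and TDG passed it in none of these. UNG, the main uracil glycosylase, was at 20.6 and 38.0 CPM in DMSO and between 14.6 and 17.4 CPM after treatment. The change in log2 was -0.86 (SE 0.27, adjusted p = 0.0810 in edgeR), about as large as the 0.89 between the DMSO libraries. SMUG1, a further uracil glycosylase, had 207 and 227 counts in DMSO libraries against 388, 307 and 565 counts, with no overlap in CPM (log2 fold change 0.78, SE 0.20, adjusted p = 0.0474 in edgeR and 0.00612 in DESeq2).

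The glycosylases for oxidised bases also differed in sign. OGG1, which removes 8-oxoguanine, was at 18.8 and 18.3 CPM in DMSO and at 13.6, 11.5 and 11.6 CPM in doxorubicin (log2 fold change -0.59, SE 0.18, adjusted p = 0.0709 in edgeR). MUTYH, which removes adenine paired with 8-oxoguanine, was at 6.03 and 7.48 CPM against 3.83, 4.03 and 3.91 CPM (log2 fold change -0.78, SE 0.23, adjusted p = 0.0725 in edgeR). NEIL1 lay higher, with 89 and 72 counts in the DMSO libraries against 181, 129 and 260 counts. The change in log2 was 1.07 (SE 0.27, adjusted p = 0.0458 in edgeR and 0.00589 in DESeq2), and it overlaps MAN2C1. For NEIL2 the log2 fold change was 0.40 with overlapping groups, and for NTHL1, at 4.77 and 11.1 CPM in the DMSO libraries, it was -0.49 with overlapping groups. None of OGG1, MUTYH, NEIL2 and NTHL1 passed the threshold in edgeR, DESeq2 or limma voom.

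In the steps after base removal all 6 genes had negative log2 fold changes, and the PARP genes were lower past the threshold. PARP1 and PARP2 are the polymerases that mark strand breaks with ADP-ribose chains and gather the repair factors. PARP2 (chromosome 14, 20343635 to 20357904, plus strand, GRCh38) was at 30.7 and 33.4 CPM in DMSO and at 10.1, 8.27 and 7.85 CPM in doxorubicin. It fell 3.66-fold (log2 fold change -1.87, SE 0.18, adjusted p = 0.00211 in edgeR), with narrow groups far apart. PARP1 (chromosome 1, 226360691 to 226408093, minus strand, GRCh38) was at 135 and 180 CPM in DMSO and at 78.1, 73.8 and 69.4 CPM in doxorubicin. It fell 2.13-fold (log2 fold change -1.09, SE 0.17, adjusted p = 0.00973 in edgeR), and limma voom placed it just outside the threshold (adjusted p = 0.0113).

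XRCC1, the scaffold that PARP activity recruits, was at 54.7 and 51.6 CPM in DMSO and at 31.3, 26.7 and 32.9 CPM in doxorubicin, with no overlap (log2 fold change -0.81, SE 0.16, adjusted p = 0.0211 in edgeR and 0.000156 in DESeq2). Its partner LIG3, which seals the nick, had a log2 fold change of -0.28 (SE 0.18) with overlapping groups. POLB, which fills the gap, was at 21.5 and 27.3 CPM against 19.2, 32.7 and 20.2 CPM, so that the treated libraries spanned the DMSO range (log2 fold change -0.02, SE 0.27). APEX1, which cuts the strand at the site left without a base, was at 204 and 180 CPM against 132, 169 and 130 CPM (log2 fold change -0.41, SE 0.17, adjusted p = 0.158 in edgeR).

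Of the mismatch repair genes, MSH6, the partner in the MutS complex for single mismatches, passed the threshold. MSH6 (chromosome 2, 47783145 to 47810101, plus strand, GRCh38) overlaps FBXO11. It was at 136 and 179 CPM in DMSO and at 61.9, 59.2 and 54.8 CPM in doxorubicin. From 158 ± 30.2 CPM (SD, n = 2) it fell 2.69-fold to 58.6 ± 3.63 CPM (SD, n = 3), with a log2 fold change of -1.43 (SE 0.16, adjusted p = 0.00355 in edgeR). MSH3, the partner in the complex for larger loops, had 32.0 and 33.2 CPM against 24.4, 28.4 and 21.5 CPM (log2 fold change -0.40, SE 0.18, adjusted p = 0.182 in edgeR). The MutL genes MLH3, PMS1 and PMS2 had log2 fold changes of -0.27, -0.23 and 0.01 and did not pass the threshold. PMS2 shares near-identical sequence with PMS2CL and other copies, so that its counts are uncertain.

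MGMT, the enzyme that takes alkyl groups off guanine, had 0 counts in each of the 5 libraries. At these depths 0 counts allow up to 3 counts in a library, or between 0.0826 and 0.125 CPM, for counting error only. No change of MGMT could therefore be measured.

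**Figure D2:**
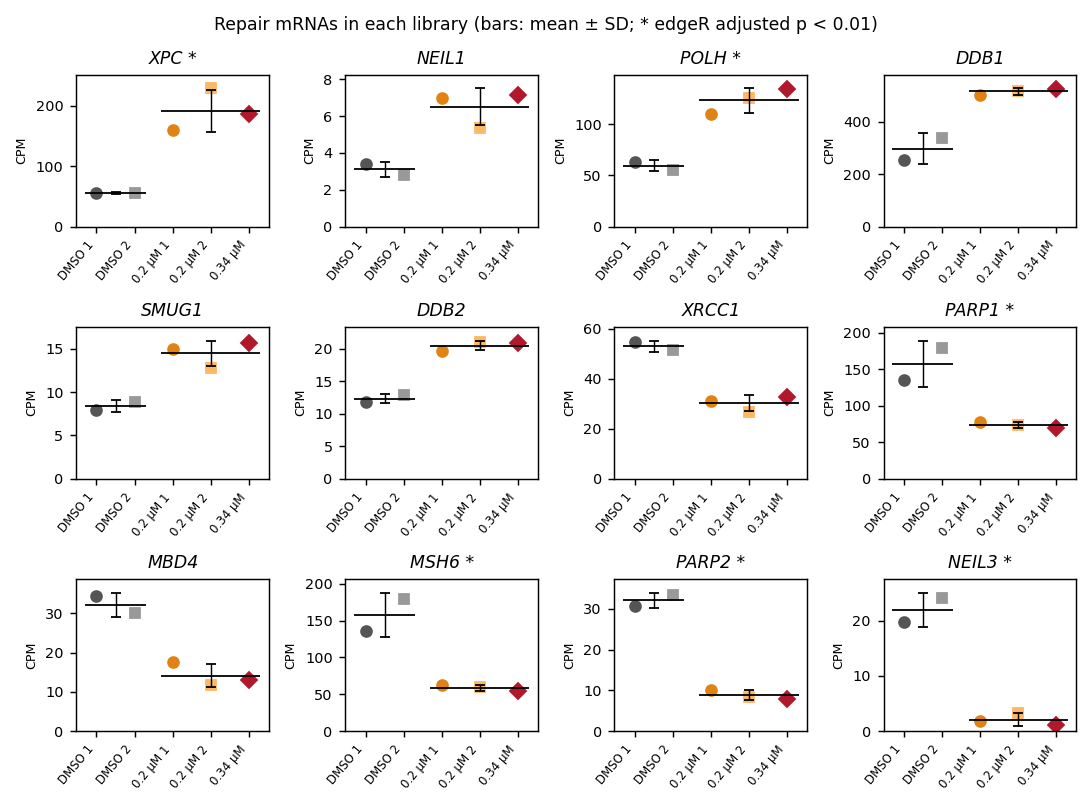
Normalised level in CPM (y axis, from 0) of the 12 members called by edgeR or DESeq2 in each of the 5 libraries (x axis), with a line at the mean of each group and bars of ± 1 SD (n = 2 DMSO, n = 3 doxorubicin); an asterisk marks an edgeR adjusted p under 0.01. In every panel the treated libraries lie on one side of both DMSO libraries, from XPC at 160 to 229 CPM against 55.0 and 56.3 to NEIL3 at 1.02 to 3.33 CPM against 19.7 and 24.2.

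The relative abundance of the repair mRNAs was compared per length, as CPM divided by the length of the reference transcript (MANE Select) in kb. These values could be given for 37 tested members. In DMSO the order was led by APEX1 at 132, DDB1 at 70.2, PARP1 at 39.6, MSH6 at 36.9 and XRCC1 at 25.9 CPM per kb. In doxorubicin it was led by DDB1 at 121, APEX1 at 99.1 and XPC at 52.6 CPM per kb. XPC thus moved from the 10th place to the 3rd by level per kb, and MSH6 from the 4th to the 11th. POLH went from place 23 to 10, PARP2 from 8 to 26 and NEIL3 from 17 to 37, the last place. ERCC3, POLB and ERCC1 lay close together in both groups, between 17.1 and 19.7 CPM per kb, and their order is within their spread.

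**Figure D3:**
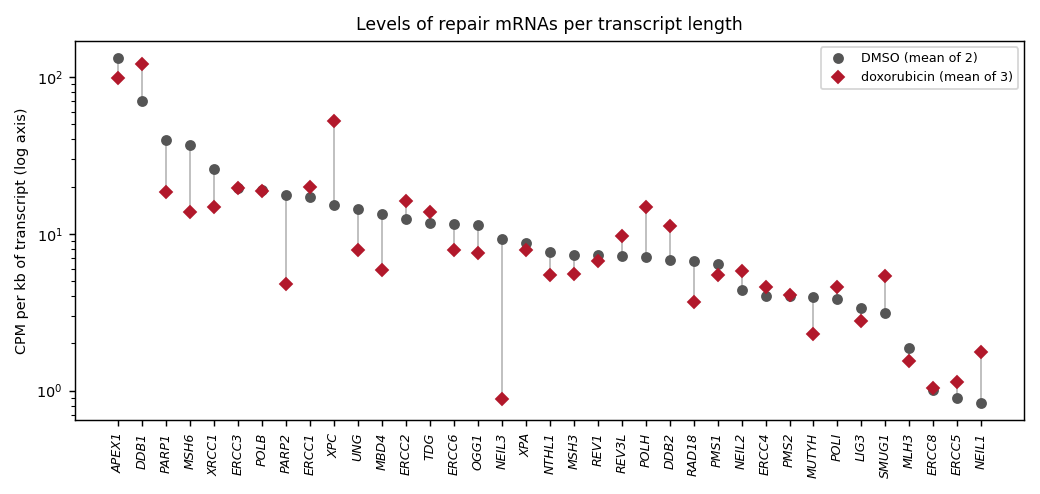
Mean level in CPM per kb of transcript (log y axis) in DMSO (circles, mean of 2) and doxorubicin (diamonds, mean of 3) for the 37 tested members with a transcript length, ordered by the DMSO level. Long vertical lines mark XPC (15.3 to 52.6), PARP2 (17.5 to 4.79) and NEIL3 (9.29 to 0.880).

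Other genes that serve these pathways were taken from a fixed list of 65 genes, 62 of which were tested. Of these, 1 was higher and 12 were lower past the threshold in edgeR, where 1.29% of all genes were higher and 2.73% lower, and the median log2 fold change was -0.24. The called genes were mostly those of the DNA synthesis step that the pathways share with replication, where 7 of 14 were lower and 1 was higher. POLE2, a subunit of polymerase epsilon, was at 6.18 and 8.19 CPM in DMSO and at 1.04, 1.12 and 0.551 CPM in doxorubicin (log2 fold change -3.00, adjusted p = 0.00501 in edgeR). For POLD3, a subunit of polymerase delta and of polymerase zeta, the value was -2.29 (adjusted p = 0.0011 in edgeR). EXO1, the exonuclease of mismatch repair, was at -2.80 (adjusted p = 0.00761 in edgeR), and POLQ, which joins broken ends and can bypass lesions, at -2.45 (adjusted p = 0.00329 in edgeR). POLD4, the smallest polymerase delta subunit, was the one that rose, from 28.5 and 34.1 CPM to 76.6, 67.1 and 81.0 CPM (log2 fold change 1.26, adjusted p = 0.00622 in edgeR). In the remaining nucleotide excision list of 19 tested genes, 1 was lower and none was higher past the threshold in edgeR, with 5 at an unadjusted p under 0.05, as were 30.8% of all genes, and 3 lower in DESeq2, as were 8.02% of all genes.

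Markers of the cell cycle and of the p53 response moved alongside. All 26 genes of a list for G1/S and S phase had negative log2 fold changes (median -2.34). Of these, 18 were called by edgeR (69.2%), where 2.73% of all genes were called lower. The median level of that list also differed between the DMSO libraries, at -0.42 and 0.42 on the log2 scale around their mean. It lay at -2.36, -2.11 and -2.69 in doxorubicin. Over all genes tested the DMSO medians were -0.0042 and 0.0042. The first DMSO library was lower than the second in 15 of the 22 members with a negative log2 fold change, PARP1, MSH6 and NEIL3 among them, and in 7 of the 16 with a positive one, DDB1 among them. MBD4, APEX1, XRCC1 and OGG1 were higher in the first. A list of 22 p53 targets that held no member had 22 positive log2 fold changes (median 2.21). Of these, 15 were called by edgeR (68.2%), where 1.29% of all genes were called higher. XPC, at 1.79, lay inside the range of that list (0.75 to 3.75), and so did POLH, at 1.05, while DDB2, at 0.74, lay just below it. NEIL1, at 1.07, DDB1, at 0.79, and SMUG1, at 0.78, also lay inside this range, so that lying in it does not set the first genes apart. The part of S phase cells or of p53 in the changes of the members was not tested.

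**Figure D4:**
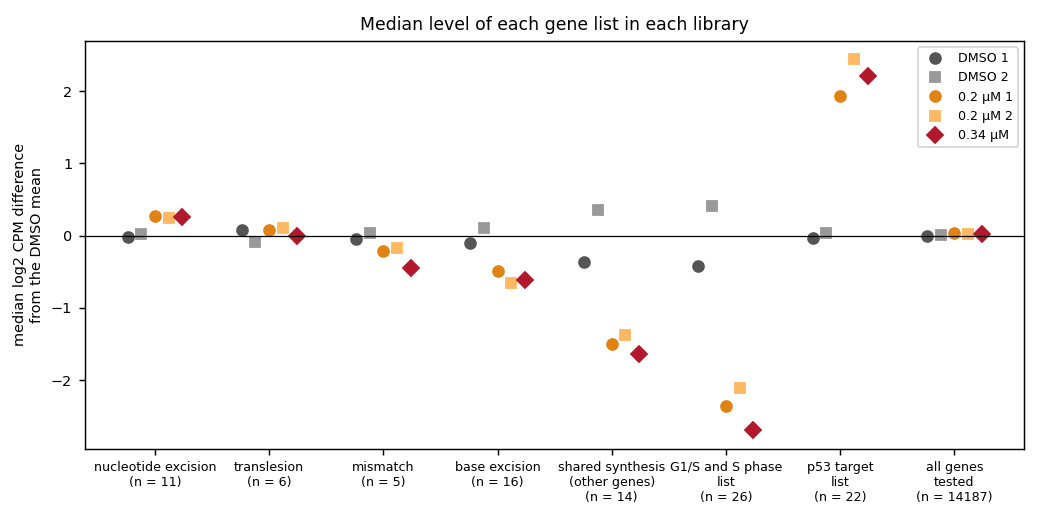
Median over each gene list of the log2 CPM difference from the DMSO mean (y axis) in each of the 5 libraries, for the pathways, the shared synthesis genes, the S phase and p53 lists and all genes tested. The medians of the base excision members lie at -0.49 to -0.65 in doxorubicin, between those of all genes (0.02 to 0.03) and of the S phase list (-2.11 to -2.69).

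The concentrations were compared with each other in a fit of 3 conditions. Against DMSO, 1 member (NEIL3) was called at 0.2 μM, where 1.25% of all genes were called, and 0 members at 0.34 μM, where 0.665% were. Both comparisons use the same DMSO libraries, and the change had the same sign at both concentrations in 34 of 38 members. XPC had log2 fold changes of 1.80 and 1.75 at 0.2 and 0.34 μM, POLH 0.98 and 1.16, PARP2 -1.80 and -2.03, and MSH6 -1.38 and -1.53. Between 0.34 and 0.2 μM edgeR called 0 members, as did DESeq2 and limma voom, and 0% of all genes tested were called. At an unadjusted p under 0.05 there was 1 member in edgeR (27 of all 14745 genes, 0.183%), 1 in DESeq2 and 0 in limma voom. NEIL3 was this member in edgeR, at 1.89 and 3.33 CPM against 1.02 CPM, a log2 difference of -1.35 (SE 0.49). RAD18 followed with -0.53 (SE 0.36). Since the 0.34 μM condition has 1 library, its spread was taken from the other conditions, and a count of 0 is no evidence that the concentrations acted alike.

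**Figure D5:**
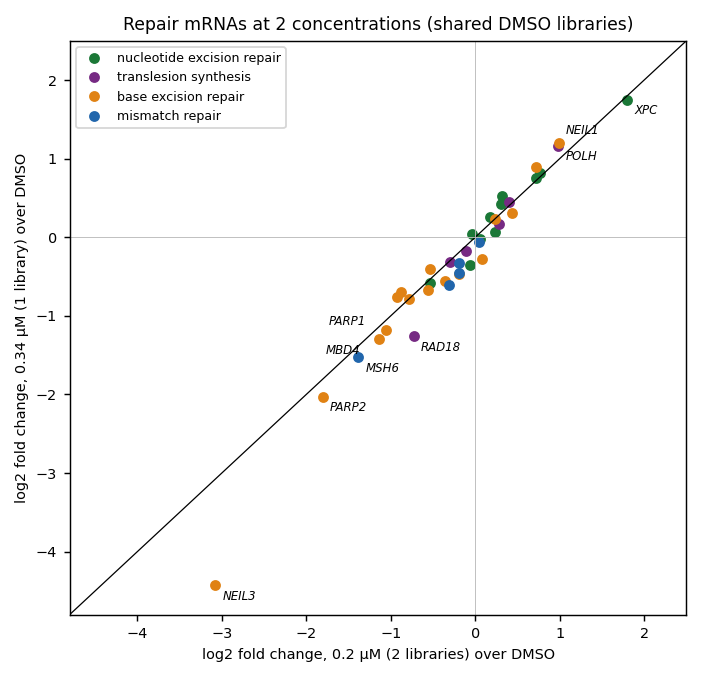
Log2 fold change over the same 2 DMSO libraries at 0.2 μM (x axis, 2 libraries) and at 0.34 μM (y axis, 1 library) for the 38 members tested, with the line of equal change. Most members lie near the line, and NEIL3 lies below it at -3.08 and -4.42.

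The upstream regions of both members that rose and of the 2 with the largest falls are shown, so that their letters can be compared. The 250 bases before the annotated start were taken from RefSeq (GRCh38.p14) for 36 members. Searched on both strands were the E2F words TTTCGCGC, TTTGGCGC and TTTCCCGC, the cell cycle homology words TTTGAA and TTCGAA, the CCAAT box and the GC box GGGCGG, together with the p53 response element as a pair of its decamers. Below, 5′ to 3′ on the strand of the gene, capitals mark the letters of any of these words except the p53 element, and the first pair of genes rose and the second pair fell.
XPC: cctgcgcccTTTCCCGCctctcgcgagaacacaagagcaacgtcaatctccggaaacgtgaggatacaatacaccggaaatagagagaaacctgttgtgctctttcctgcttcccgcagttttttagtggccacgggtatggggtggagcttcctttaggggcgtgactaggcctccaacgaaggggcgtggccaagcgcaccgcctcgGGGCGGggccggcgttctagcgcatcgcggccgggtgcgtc
POLH: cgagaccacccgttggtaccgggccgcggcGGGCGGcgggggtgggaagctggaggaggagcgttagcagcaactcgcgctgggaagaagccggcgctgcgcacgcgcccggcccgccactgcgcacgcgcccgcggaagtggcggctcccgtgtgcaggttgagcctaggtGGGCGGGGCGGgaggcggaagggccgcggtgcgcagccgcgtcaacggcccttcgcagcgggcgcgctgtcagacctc
NEIL3: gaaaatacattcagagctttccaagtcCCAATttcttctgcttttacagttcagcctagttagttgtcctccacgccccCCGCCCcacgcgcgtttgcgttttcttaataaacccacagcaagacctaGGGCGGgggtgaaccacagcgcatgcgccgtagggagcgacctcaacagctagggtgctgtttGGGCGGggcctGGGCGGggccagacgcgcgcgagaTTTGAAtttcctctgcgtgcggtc
PARP2: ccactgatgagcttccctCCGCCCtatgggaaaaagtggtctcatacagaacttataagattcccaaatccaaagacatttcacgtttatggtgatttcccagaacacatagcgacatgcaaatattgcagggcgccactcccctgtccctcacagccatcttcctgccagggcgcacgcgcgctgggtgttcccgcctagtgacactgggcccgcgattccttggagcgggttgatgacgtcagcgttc
They lie at chr3:14178602-14178851, chr6:43575935-43576184, chr4:177309624-177309873 and chr14:20343385-20343634.

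XPC holds an E2F word 241 bases and a GC box 41 bases before its start, and POLH holds 3 GC box words, of which 2 overlap. NEIL3 holds a cell cycle homology word 24 bases before its start, a CCAAT box and 4 GC box words, and PARP2 a GC box. Of the called members not shown, MSH6 holds a CCAAT box and 5 GC box words, and PARP1 holds 2 GC box words. An E2F word was found in 3 of the 36 windows (8.33%, against 2.38% of all 27305 promoters of the same length and 3.75% of those of genes tested), in XPC, POLI and MSH3. A cell cycle homology word was found in 2 (5.56% against 14.6% of all and 9.66% of those of genes tested), in NEIL3 and XRCC1. The CCAAT box was in 13 windows (36.1% against 33.0% and 35.0%) and the GC box in 25 (69.4% against 42.3% of all and 66.1% of the promoters of genes tested). A full p53 element was found in 0 of the 36 windows and in 0.0293% of all promoters. At so low a share, 0 in 36 windows is uninformative, and bases after the start were not searched. These are matches of letters, not sites of binding.

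Gene length, which could matter for a drug that acts on topoisomerases, varied from 2.54 kb (APEX1) to 222 kb (MSH3) among the tested members. Across these 38 genes the log2 fold change had a Spearman's rho of 0.00843 with the genomic span, as a description, against -0.141 across 13001 genes tested with a span. The 3 members over 100 kb were REV3L, MSH3 and ERCC6, and 2 of them had negative log2 fold changes. Another gene of the count table overlapped 15 of the 39 members, and the counts of these could include reads of the neighbour.

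The calls rested on few libraries. The sign of all 6 called members held with each library left out in turn. Their log2 fold changes then stayed between 1.65 and 1.91 for XPC, 0.94 and 1.14 for POLH, -3.93 and -3.07 for NEIL3, -1.99 and -1.79 for PARP2, -1.62 and -1.23 for MSH6 and -1.30 and -0.89 for PARP1. At the threshold of 0.01 edgeR kept 1 of the 6 calls without DMSO replicate 1 (MSH6, with 1.48% of all genes called) and 0 without DMSO replicate 2 (0.335% of all genes). It kept 2 without replicate 1 of 0.2 μM (PARP2 and XPC, 1.48%), 2 without replicate 2 of 0.2 μM (NEIL3 and XPC, 1.31%) and 1 without the 0.34 μM library (NEIL3, 1.28%). At an adjusted p under 0.05 in edgeR, 4 were kept without the 0.34 μM library and 6 without any other. In 12 of the 38 members the DMSO libraries differed by more than the change between the groups, ERCC2, ERCC6, POLK, UNG and NTHL1 among them.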

How the data were processed

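RNA-seq was analysed in 5 libraries, grouped by the treatment in their labels: 2 of DMSO, 2 of 0.2 μM doxorubicin and 1 of 0.34 μM. Raw counts of reads per gene were deposited by the authors, who aligned poly-A RNA-seq reads with STAR (hg38) and counted per gene with Rsubread, using iGenomes gene models. For tool versions, strandedness of counting and multi-mapped reads, settings were not given in the sources used here. A table of the authors' own DESeq2 comparison (mean counts, fold changes, Wald statistics and p-values) was not used.

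Tests were run in R 4.3.3. The 3 pooled doxorubicin libraries were set against the 2 DMSO libraries by the quasi-likelihood method of edgeR 4.0.16 after TMM scaling, without covariates, and DESeq2 1.42.0 and voom of limma 3.58.1 served as alternatives. A filter on low counts (minimum 10, minimum total 15) kept 14187 of 26485 genes. P-values were adjusted by Benjamini-Hochberg over all genes tested, with a threshold of 0.01. Each standard error was derived from the log2 fold change and its F statistic. Whether libraries of one condition came from separate cultures is stated by the study (biological replicates), not by the labels. Libraries of one condition differed by far more than sampling noise (chi-square per degree of freedom 117 and 75.3). On simulated counts of 3 against 2 libraries, with 200 of 14187 genes changed 4-fold, edgeR called 68.2% of the changed genes, with 2.12% of its calls unchanged genes, and DESeq2 82.7%, with 10.4%. The simulated noise was independent between libraries and every change was 4-fold, so these rates need not hold for the calls made here.

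The members, the gene lists and the tests were chosen with earlier results of these data known. All members are named, and of the further pathway genes those called with the 4 largest rises (only 1 was called) and the 4 largest falls. One listed gene, PCLAF, was found under the older symbol KIAA0101. Gene positions come from RefSeq on GRCh38.p14, the build of the counts, and transcript lengths from GENCODE. Varied one at a time were tool, scaling, low-count filter, threshold, the grouping of doses, a replicate block and leaving out each library.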

Additional observations from a re-analysis of the deposited data

How the results depend on the processing

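The 2 members called higher and 4 called lower numbered within 1.5 times of this with limma voom, median-ratio normalization, no filter on low counts and the replicate block, except as follows. DESeq2 called 6 higher, and an adjusted p under 0.05 gave 6 higher. With the 0.2 μM libraries alone, 0 were called higher and 1 lower. Leaving out each library in turn gave between 0 and 1 higher and between 0 and 1 lower. The median of nucleotide excision repair was 0.23 with the 0.2 μM libraries alone and between 0.13 and 0.27 without each library, that of base excision repair between -0.68 and -0.44 and that of translesion synthesis between 0.039 and 0.21.

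Of 38 members tested, 30 kept their sign in all alternatives. The others changed sign in at least 1: without each library in turn, the log2 fold change ranged from -0.35 to 0.048 for XPA, -0.074 to 0.12 for ERCC8, -0.14 to 0.11 for ERCC3, -0.039 to 0.87 for ERCC5, -0.64 to 0.11 for POLK, -0.98 to 0.23 for NTHL1, -0.31 to 0.14 for POLB and -0.041 to 0.053 for PMS2. POLB was 0.084 with the 0.2 μM libraries alone. With the replicate block, ERCC3 was 0.012 and POLB 0.040. The cause was not tested.

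With the replicate block, in which the 0.34 μM library was given number 1, 2 members were called higher before and 3 with it, and 4 lower before and 6 with it, 9 in all (23.7%, against 10.9% of all genes), including all 6 of the main test. The labels give a number only to the second library of each condition and name no shared batch, so by the labels the libraries share only a number. The differences of replicate 1 from replicate 2 in DMSO and at 0.2 μM correlated with r = 0.527 over 14187 genes. Counts were low for MGMT, with 0 in each library, and for NEIL3 after doxorubicin, with as few as 37, in the deepest library.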
